A study of Mus musculus with 2 samples.

Results

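Nuclear receptors are transcription factors that bind DNA and, in most cases, a small lipid-soluble ligand. The 41 genes described here are the rows of the deposited gene tables whose identifier carries a nuclear receptor symbol in the mouse annotation, with HNF4, REV-ERB and the mineralocorticoid receptor left out by that rule. They were 41 of 43346 gene rows. The measured tissue was kidney from a 10-week-old female mouse of strain C57BL/6J, with no treatment named in the labels. Polyadenylated RNA of 1 tissue sample was sequenced in 2 libraries, which the labels call technical replicates 1 and 2 of biological replicate 1 and which are named library 1 and library 2 below. Both form 1 group, so there was no contrast between conditions, and differences between the libraries carry no information on how animals vary. The labels state that library 2 did not belong to the set first published. Library and preparation cannot be told apart, since each preparation gave 1 library.

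A typical receptor holds a DNA-binding domain of 2 zinc fingers and a ligand-binding domain that exchanges corepressors for coactivators when the ligand enters. Steroid receptors wait in complexes with chaperones and bind DNA as pairs of like molecules, whereas the receptors for vitamin D, thyroid hormone, retinoic acid, fatty acids, oxysterols and bile acids bind DNA together with a retinoid X receptor (RXR). Orphan receptors have no known or no classical hormone. The kidney is a site of vitamin D activation and of calcium reabsorption under the vitamin D receptor, and its proximal tubule burns fatty acids under PPAR and estrogen-related receptor control.

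Expected counts, which estimate how many reads each gene received, summed to 28263718 in library 1 and 20720519 in library 2, of which the 41 genes held 24315 and 33041. Levels are given as TPM, a value per transcript length that sums to the same total in each library. Mitochondrial genes and their 11 nuclear copies took 74.5% of all TPM in library 1 and 36.5% in library 2, so equal TPM in both libraries does not mean equal shares of the nuclear genes' RNA. Of 8 kidney epithelium markers, 7 had a TPM of 1 or more in both libraries, with a summed TPM of 1086 and 5330. The exception was Aqp2, the water channel of the collecting duct, at 0.79 and 176 TPM. The tissue label and these markers therefore match in both libraries.

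The first zinc finger of the DNA-binding domain shows how close the members are to each other and where they part. A pattern of 4 cysteines, spaced as in this finger and followed by a pair of phenylalanines, was found in the translated coding sequence of 39 members. It was not found in Nr0b1 or Nr0b2, which lack this domain. The stretch of 25 residues begins at the first cysteine and contains the P-box, 5 residues that contact the bases of the DNA half-site. The 39 members fell into 8 classes by P-box, and 25 of them shared 1 class. The coding sequences below are of the member with the highest mean TPM in 4 of the 5 classes with the highest summed TPM, of Pgr for the other, and of 4 further relatives whose levels are compared later. Each has 75 bases, is written 5′ to 3′ on the coding strand with the P-box codons in capitals, and comes from GENCODE M21 on GRCm38. The spans of Thra and Thrb include an intron, which is not printed. The glucocorticoid receptor gene Nr3c1 leads the P-box class of Pgr, a scarce member, and is not printed.
Vdr, chr15:97884796-97884870, minus strand: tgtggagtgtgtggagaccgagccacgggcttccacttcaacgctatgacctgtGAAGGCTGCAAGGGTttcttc
Thra, chr11:98756958-98760884, plus strand: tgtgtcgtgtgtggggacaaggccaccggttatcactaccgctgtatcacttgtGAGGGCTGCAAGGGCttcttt
Thrb, chr14:18002563-18008577, plus strand: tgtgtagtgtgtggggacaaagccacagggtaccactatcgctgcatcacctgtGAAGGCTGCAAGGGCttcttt
Esrra, chr19:6920079-6920153, minus strand: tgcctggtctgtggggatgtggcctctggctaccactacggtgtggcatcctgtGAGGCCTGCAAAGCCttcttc
Esrrg, chr1:188043659-188043733, plus strand: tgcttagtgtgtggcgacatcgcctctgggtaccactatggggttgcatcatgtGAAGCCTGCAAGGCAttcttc
Nr2f2, chr7:70360021-70360095, minus strand: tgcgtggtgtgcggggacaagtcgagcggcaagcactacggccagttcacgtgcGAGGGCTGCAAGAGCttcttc
Nr2f6, chr8:71381029-71381103, minus strand: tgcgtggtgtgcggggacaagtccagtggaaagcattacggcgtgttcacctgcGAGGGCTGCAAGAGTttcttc
Esr1, chr10:4746717-4746791, plus strand: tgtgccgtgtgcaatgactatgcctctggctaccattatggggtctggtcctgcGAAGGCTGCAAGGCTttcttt
Pgr, chr9:8903657-8903731, plus strand: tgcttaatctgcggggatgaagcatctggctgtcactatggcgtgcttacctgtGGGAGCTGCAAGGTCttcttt
Thra and Thrb, which encode the thyroid hormone receptors, differed at the DNA level but encoded the same finger, with 66 of 75 bases and 25 of 25 residues identical. Esrra and Esrrg, estrogen-related receptors, shared 60 of 75 bases and 24 of 25 residues. For the COUP transcription factors Nr2f6 and Nr2f2, 67 of 75 bases and 24 of 25 residues were identical. All 39 stretches held between 45.3% and 68.0% GC.

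Most members were present at low or moderate levels, and more of them were seen in library 2. In library 1, 17 of 41 members (41.5%) reached a TPM of 1, against 22% of all gene rows. In library 2, 28 members (68.3%) did, against 30.5% of all rows. The 17 members of library 1 were all among the 28 of library 2, so 17 (41.5%, against 21.6% of all rows) reached 1 TPM in both, 11 in library 2 only and 13 in neither. The members' TPM summed to 170 in library 1 and 667 in library 2, with medians of 0.48 and 5.94. With mitochondrial genes and copies taken out of the total, the sums were 668 and 1050.

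**Figure D1:**
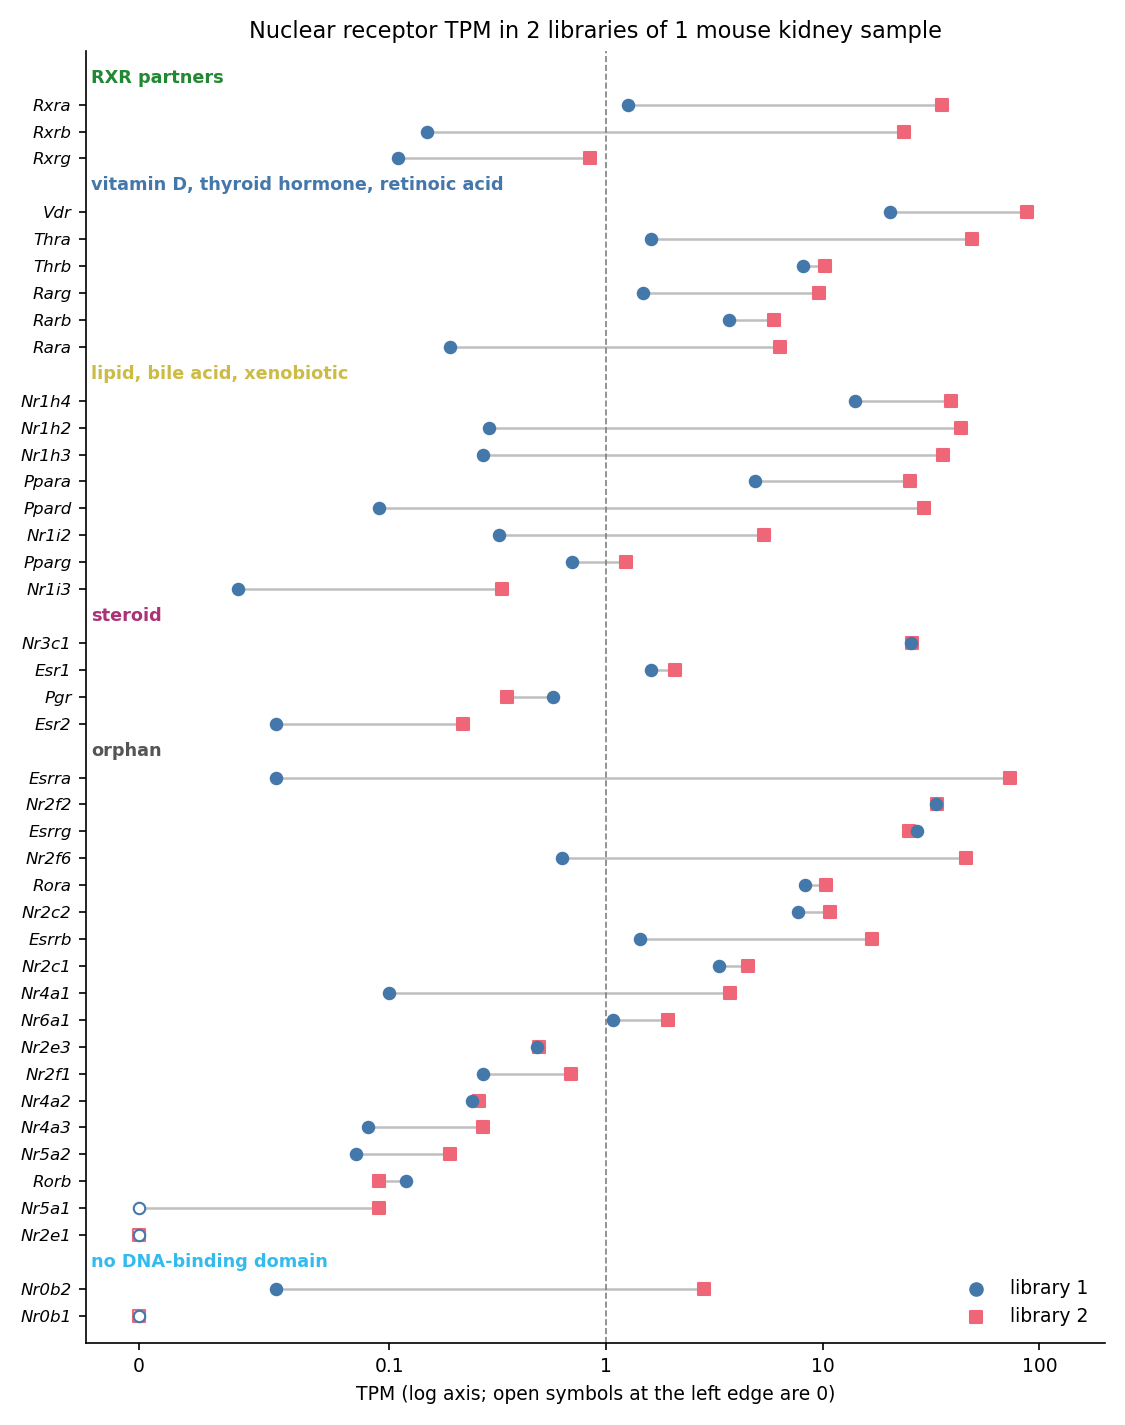
TPM of each of the 41 members (log axis, with values of 0 drawn as open symbols at the left edge) in library 1 (circles) and library 2 (squares), grouped by ligand class and ordered by mean; the dashed line marks 1 TPM. The pairs for Nr2f2, Nr3c1, Esrrg and Nr2e3 nearly coincide, while Esrra, Nr1h2 and Ppard lie below 0.3 in library 1 and above 29 in library 2.

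The order of the members was only partly shared. Across the 41 genes, the rank correlation of TPM between the libraries was 0.58 (Spearman) and the correlation of log2(TPM + 1) was 0.53 (Pearson), as descriptions over genes of the same 2 libraries. Of 820 pairs of members, 587 stood in the same order in both, 224 in the opposite order and 9 were tied in a library. Vdr, Nr2f2 and Nr1h4 were the 3 members among the 10 highest of both libraries. In the order by mean TPM, 38 of 40 neighbouring pairs had overlapping ranges over the libraries. Each range spans the difference between the libraries, so an overlap does not show that 2 neighbours were alike. A pair can overlap and still keep its order within each library, as Vdr and Esrra did. The ranges were separate between Pparg and Nr2e3 and between Pgr and Nr4a2. Members further apart in the order could also be separate, as Nr2f2 (33.4 and 33.8 TPM) and Nr3c1 (25.7 TPM in both) were.

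Differences between the libraries were then tested on counts. Library sizes were scaled by TMM and a two-sided exact binomial test was run on each of 15553 genes with 10 or more counts over both libraries, with Benjamini-Hochberg adjustment over all of them. Calls needed an adjusted p below 0.05 together with a log2 ratio, library 2 over library 1, of at least 1 in size. The test compares 2 libraries and covers counting error only. Of 38 members tested, 15 (39.5%) were called higher in library 2, against 35.5% of all genes tested, and 10 (26.3%) higher in library 1, against 24.9%. Scaling by total counts shifted the median log2 ratio of all genes from 0.12 to 1.03 and gave 20 members toward library 2 and 1 toward library 1. Scaling by total counts without mitochondrial genes and copies, at a median of 0.36, gave 15 and 6, and so did TMM over all gene rows. The members' shares lay near those of all genes. Nr0b1 and Nr2e1 had no counts, which allows up to 3 counts in either library, and Nr5a1 had 0 and 4, so these 3 were not tested.

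The RXR genes, which encode the shared partners, were all 3 called higher in library 2, against 35.5% of all genes tested. Rxra, the main RXR of many epithelia, had 1.26 and 35.6 TPM in libraries 1 and 2. Rxrb had 0.15 and 23.8 TPM. Rxrg stood at 0.11 and 0.84 TPM, below 1 in both. The 3 genes summed to 1.52 TPM in library 1, or 0.893% of the members' TPM, and to 60.3 TPM in library 2, or 9.04%. On scaled counts, the log2 ratio was 3.45 ± 0.11 (SE from counting) for Rxra on 184 and 2765 counts. It was 5.78 ± 0.45 for Rxrb on 10 and 790 counts (adjusted p = 9.83e-169, exact binomial test). For Rxrg, with 5 and 20 counts, it was 1.44 ± 0.69 (adjusted p = 0.0426, exact binomial test).

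Among the receptors that pair with RXR for a hormone, the vitamin D receptor gene Vdr was the most abundant member by mean TPM. It had 20.5 and 87.1 TPM, a mean of 53.8 ± 47.1 (SD, n = 2 technical libraries), and ranked 4 and 1 among the members. Its counts of 2649 and 5798 gave a log2 ratio of 0.67 ± 0.03, which passed the test but not the minimum ratio. The thyroid hormone receptor genes went opposite ways on counts. Thra had 1.62 and 48.7 TPM and a log2 ratio of 4.52 ± 0.21 (49 and 1557 counts, adjusted p = 5.52e-294, exact binomial test). Thrb, the receptor of the pituitary feedback loop, had 8.14 and 10.2 TPM and a log2 ratio of -1.04 ± 0.06 (1443 and 961 counts, adjusted p = 1.45e-68, exact binomial test), just past the minimum ratio. Its call was lost with total counts (-0.14), with total counts without mitochondrial genes and copies (-0.80) and with TMM over all gene rows (-0.99). Thrb thus led in library 1 and Thra in library 2. Among the retinoic acid receptor genes, Rarb had 3.69 and 5.94 TPM, Rarg 1.48 and 9.65, and Rara 0.19 and 6.32. Rara and Rarg were called higher in library 2, with log2 ratios of 3.53 ± 0.36 and 3.04 ± 0.26, while Rarb was not called at -0.68 ± 0.12.

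The receptors for fatty acids, oxysterols, bile acids and foreign compounds held 8 members, of which 4 were called higher in library 2 and none in library 1. Of all genes tested, 35.5% were called higher in library 2 and 24.9% in library 1. Nr1h4, the bile acid receptor FXR, had 14.1 and 39.2 TPM, and its counts of 780 and 1149 gave a log2 ratio of 0.10 ± 0.07 (95% interval -0.03 to 0.24, adjusted p = 0.148, exact binomial test). Nr1h4 and Ppara were the 2 members of this class at 1 TPM or more in both libraries. Ppara, the receptor that turns on fatty acid oxidation, had 4.85 and 25.2 TPM and a log2 ratio of 0.69 ± 0.08. Ppard, its widely expressed relative, had 0.09 and 29.2 TPM on 8 and 1433 counts, a log2 ratio of 6.94 ± 0.50. Pparg, the fat cell receptor, had 0.7 and 1.24 TPM and was not called at -0.54 ± 0.34. The oxysterol receptors stood together. Nr1h2 (LXR beta) had 0.29 and 43.4 TPM and Nr1h3 (LXR alpha) had 0.27 and 35.8 TPM. Their log2 ratios were 7.59 ± 0.68 (4 and 1186 counts) and 5.65 ± 0.40 (13 and 930 counts). The receptors for foreign compounds were lower. Nr1i2 (PXR) had 0.32 and 5.35 TPM and was called higher in library 2 (log2 ratio 2.69 ± 0.31), and Nr1i3 (CAR) had 0.02 and 0.33 TPM on 2 and 9 counts and was not called.

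The steroid receptors had a summed TPM of 27.9 in library 1 and 28.4 in library 2. On counts, 3 of the 4 members were called higher in library 1, against 24.9% of all genes tested. With mitochondrial genes and copies taken out of the total, the sums were 109 and 44.7 TPM. The glucocorticoid receptor gene Nr3c1 held nearly all of it. It had 25.7 TPM in both libraries, ranking 3 in library 1 and 11 in library 2, and its 4837 and 2405 counts gave a log2 ratio of -1.46 ± 0.04. TMM allows for the mitochondrial share and TPM does not, so the scales differ here. Esr1, the estrogen receptor alpha gene, had 1.62 and 2.08 TPM and a log2 ratio of -1.03 ± 0.13, just past the minimum ratio. The call of Esr1 was lost with total counts (-0.12), with total counts without mitochondrial genes and copies (-0.78) and with TMM over all gene rows (-0.98). Pgr, the progesterone receptor gene, had 0.57 and 0.35 TPM on 107 and 36 counts and a log2 ratio of -2.01 ± 0.28 (adjusted p = 8.40e-15, exact binomial test), the lowest ratio of the 38 members tested. Esr2, estrogen receptor beta, had 0.03 and 0.22 TPM on 3 and 10 counts and was not called.

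The orphan receptors, 18 members, held 49.6% of the family's TPM in library 1 and 34.1% in library 2. Of the 16 tested, 4 were called toward library 2 and 6 toward library 1, against 35.5% and 24.9% of all genes tested. The estrogen-related receptors, which drive mitochondrial and oxidative genes, showed the largest difference. Esrra rested on 2 counts in library 1 and 2338 in library 2, at 0.03 and 72.9 TPM. Their scaled ratio was 852 (95% counting interval 236 to 7041), the highest of the family. Esrrg, the relative with high kidney expression, had 27.2 and 24.9 TPM and a log2 ratio of -1.68 ± 0.04 (4084 and 1746 counts). Esrrb had 1.44 and 16.8 TPM and a log2 ratio of 2.17 ± 0.12. Esrra was thus nearly undetected in library 1 and the second most abundant member in library 2, and the counts of Esrrg and Esrra moved in opposite directions.

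The COUP transcription factor Nr2f2, a regulator of mesenchymal and vascular cell identity, had 33.4 and 33.8 TPM, the most even of the abundant members beside Nr3c1. It ranked 1 in library 1 and 9 in library 2, and its 3640 and 1631 counts gave a log2 ratio of -1.61 ± 0.04. Nr2f6 had 0.63 and 45.7 TPM on 32 and 1291 counts, a log2 ratio of 4.86 ± 0.26. Nr2f1 was low in both, at 0.27 and 0.69 TPM on 24 and 29 counts, with a log2 ratio of -0.19 ± 0.39. The other orphans at 1 TPM or more in both libraries were Rora, Nr2c2, Nr2c1 and Nr6a1. Rora, a clock and metabolic regulator, had 8.3 and 10.3 TPM and a log2 ratio of -1.35 ± 0.05. Nr2c2 (TR4) and Nr2c1 (TR2) had 7.66 and 10.8 TPM and 3.33 and 4.53 TPM, and neither was called. The last of them, Nr6a1, the germ cell nuclear factor, stood at 1.08 and 1.93 TPM and was not called.

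Several orphans were scarce. The early response receptors of the NR4A group summed to 0.42 TPM in library 1 and 4.28 TPM in library 2, with Nr4a1 at 0.1 and 3.75 TPM (7 and 141 counts, log2 ratio 3.78 ± 0.54). Nr4a2 had 0.24 and 0.26 TPM on 22 and 14 counts and was called higher in library 1 close to both thresholds (log2 ratio -1.09 ± 0.49, adjusted p = 0.0411, exact binomial test). Nr2e3, the photoreceptor orphan, had 0.48 and 0.49 TPM, also close to both thresholds (23 and 15 counts, log2 ratio -1.06 ± 0.47, adjusted p = 0.0416, exact binomial test). Rorb had 0.12 and 0.09 TPM on 33 and 12 counts, a log2 ratio of -1.88 ± 0.48. Nr4a3 and Nr5a2 were below 0.3 TPM in both and were not called. Of the 2 members without a DNA-binding domain, Nr0b2 (SHP), the repressor induced by FXR, had 0.03 and 2.84 TPM on 1 and 44 counts, a ratio of 32.1 (95% counting interval 5.46 to 1295). Nr0b1 (DAX1) and Nr2e1 were listed at 0 in both, and the adrenal and gonadal receptor Nr5a1 at 0 and 0.09 TPM.

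The ratio between the libraries followed the base composition of the transcripts. GC content was read from the most abundant transcript of each gene whose length matched the annotation, which for Pparg and Thrb was a transcript other than the leading one. Across the 38 members, the rank correlation of the log2 ratio with GC was 0.86, and across the 11527 genes with 100 or more counts it was 0.91, as descriptions over genes that share the libraries. The 14 members with 55 to 70% GC had a median log2 ratio of 4.48, against 3.74 for all genes in that range. For the 10 members with 40 to 46% GC the median was -1.19 against -1.27. Between 46 and 50% GC the median of 8 members was -0.88 against -0.38, and between 50 and 55% that of 6 members was 1.07 against 1.05. The median over all 38 members was 0.39, against 0.12 over all genes tested. By contrast, the GC content of the printed zinc finger stretch had a rank correlation of 0.37 with the ratio over the 37 tested members that have it.

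**Figure D2:**
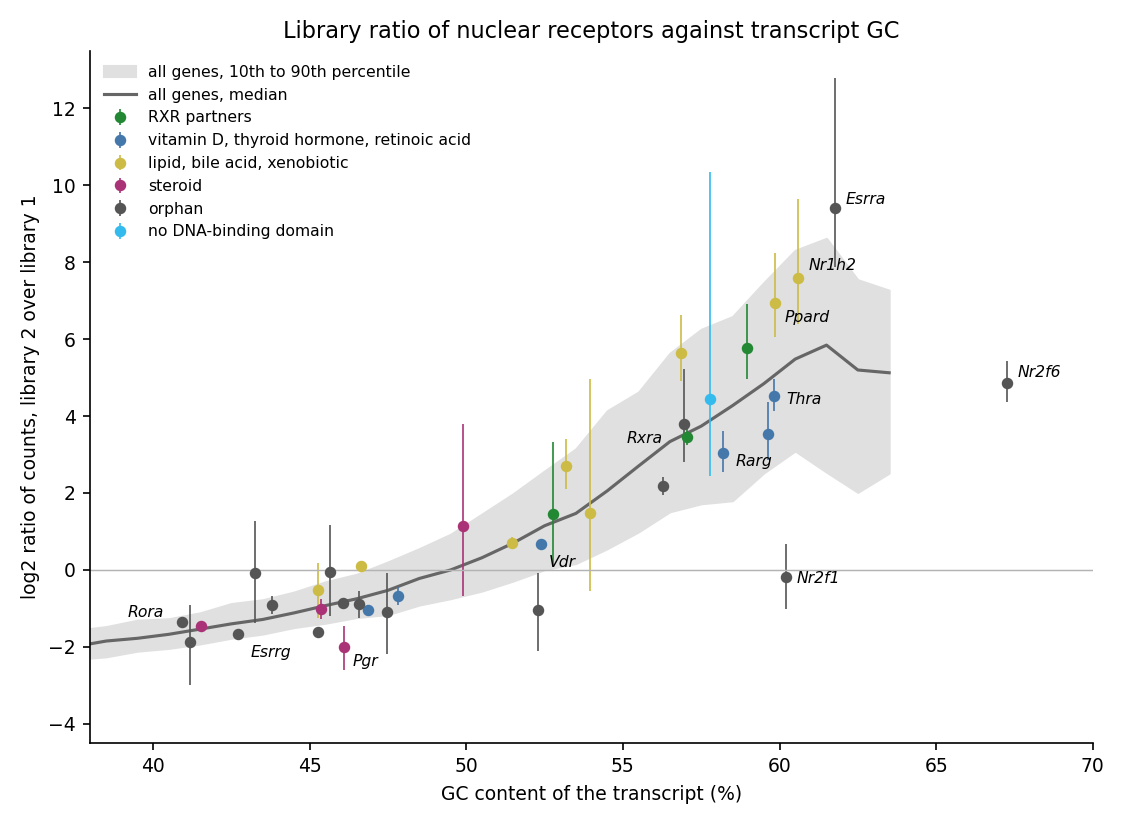
Log2 ratio of TMM-scaled counts (library 2 over library 1) against the GC content of the transcript for the 38 members tested, coloured by ligand class, with 95% counting intervals as bars. The line and band give the median and the 10th to 90th percentile over genes with 100 or more counts in steps of 1% GC holding at least 20 genes, and most members lie within that band, with Nr2f1 well below it at 60.2% GC and a ratio near 0.

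When this trend was removed with a locally weighted regression over the 11527 genes, 6 members (15.8%) were called higher in library 2, against 11.3% of 14824 genes, and 6 (15.8%) higher in library 1, against 10.7%. The members' median log2 ratio became -0.06, against -0.02 for all genes. Of the 25 members called before, 8 were called in the same direction, 3 in the other direction and 14 no longer. Those still called higher in library 2 were Esrra (log2 ratio 3.75), Nr1h2 (2.42), Nr1h3 (2.26), Ppard (2.09), Rxrb (1.33) and Nr1i2 (1.30), which are both oxysterol receptors, 1 receptor each for fatty acids and foreign compounds, 1 RXR and 1 estrogen-related receptor. Pgr (-1.22) and Nr2e3 (-2.06) were still called higher in library 1. The steroid receptor genes Esr1 (-0.09) and Nr3c1 (0.06) were not, so Pgr was the only steroid receptor still called. Rara (-1.22), Rarg (-1.05) and Nr2f6 (-2.87) changed direction. The thyroid hormone receptor genes Thra (-0.32) and Thrb (-0.40) then lay on the same side of 0, and neither was called. The value of Thrb depends on the transcript read for GC, Thrb-201 (46.9%), which held 4.03% and 5.09% of the gene. Its leading transcript, Thrb-203, is annotated at 51.4% GC. Genes with 100 or more counts had a median log2 ratio of -0.75 at 46 to 47% GC and 0.70 at 51 to 52%. Thrb stood at -1.04 before removal, so its place against the trend is uncertain. Pparg has the same limit, at 45.3% GC and 50.2% for its leading transcript. Vdr, Esrrg, Nr2f2, Nr3c1, Nr1h4 and Ppara, 6 abundant members, all lay between -0.66 and 0.79 once the trend was removed, and none was called. Thra and Rxra were not called either. Other abundant members were called there: Esrra, Nr2f6, Nr1h2 and Nr1h3, which ranked 2, 8, 9 and 11 by mean TPM, above Ppara at 12. The exact test with the trend removed covers counting error and not the spread around the trend.

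**Figure D3:**
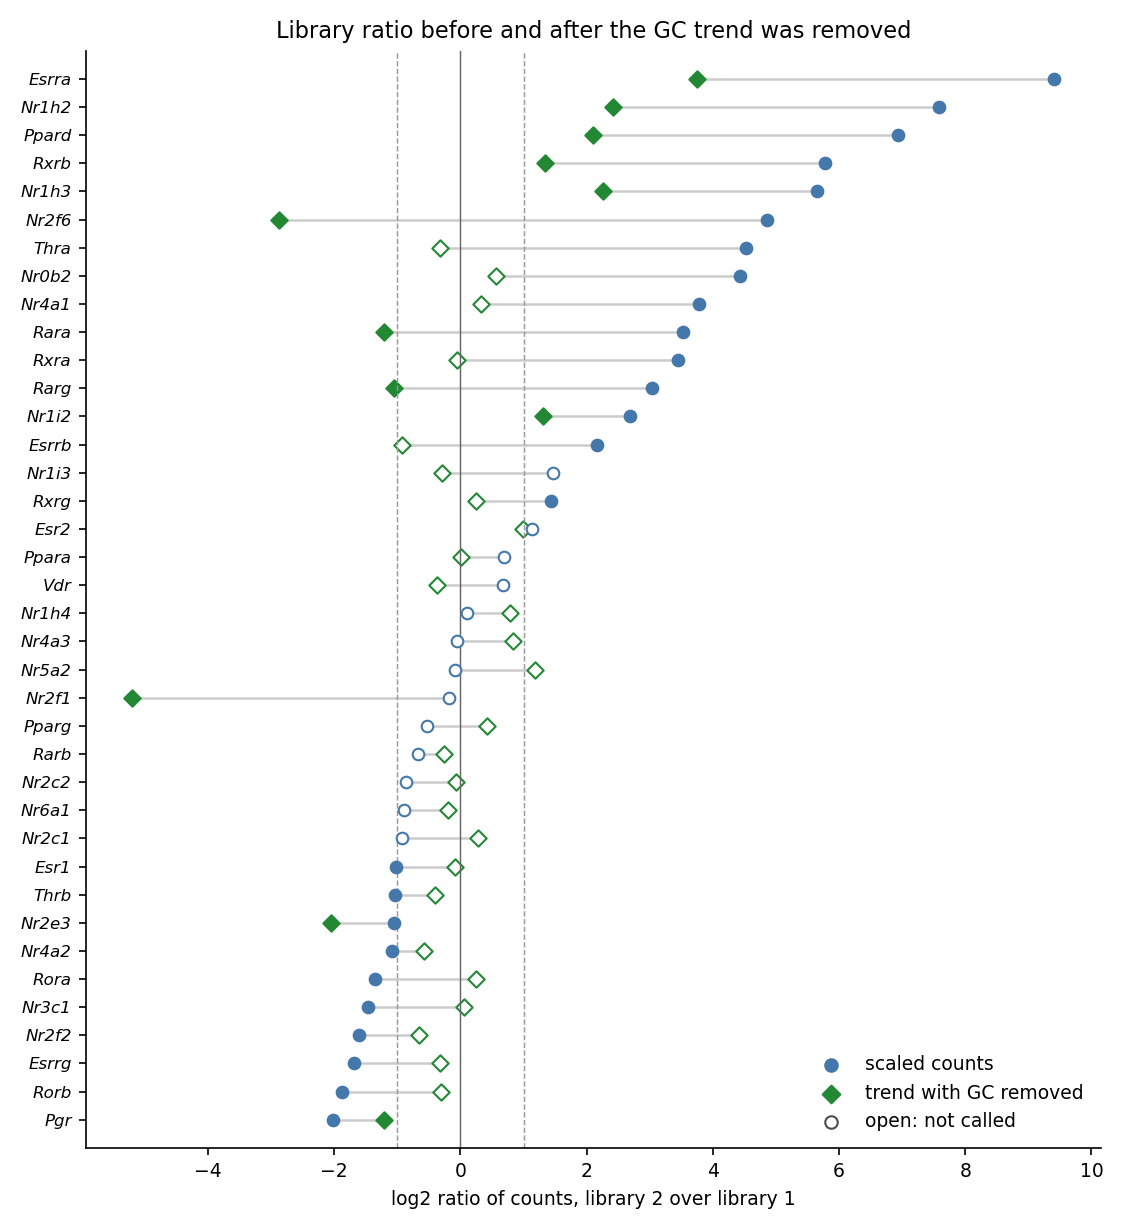
Log2 ratio of each tested member (library 2 over library 1) from TMM-scaled counts (circles) and with the trend over GC removed (diamonds); filled symbols were called and dashed lines mark the minimum ratio. Most members move toward 0, Esrra moves from 9.41 to 3.75, and Nr2f1 moves away from 0, from -0.19 to -5.20.

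Nr2f1 was the member called with the trend removed and not before, higher in library 1 (log2 ratio -5.20, adjusted p = 1.20e-24, exact binomial test). Its transcript has 60.2% GC, like those of Nr1h2 (60.6%) and Ppard (59.8%), yet its counts of 24 and 29 were nearly even. The trend between 59 and 62% GC rested on 569 genes. For Nr2f6, at 67.3% GC, it rested on few, since 41 of the 11527 genes had 64% GC or more, and its change of direction depends on that end of the curve. The 33 genes between 63 and 64% GC had a median log2 ratio of 5.12 on scaled counts, close to the 4.86 of Nr2f6, while the curve stood at 7.73 for it. Without Nr2f6, 5 members were called higher in library 1 with the trend removed.

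Within subfamilies the leading gene often changed with the library. Esrrg made up 94.9% of the estrogen-related receptor TPM in library 1 and 21.7% in library 2, where Esrra made up 63.6%. Thrb held 83.4% and 17.3% of the thyroid hormone receptor TPM. For the COUP group, the share of Nr2f2 was 97.4% and 42.2%, with Nr2f6 at 57.0% in library 2. In each of these 3 groups the gene that led in library 1 had the lowest GC content of its group. Rarb, likewise the lowest in GC among the retinoic acid receptors, held 68.8% and 27.1%. Among the PPAR genes Ppara had 86.0% of the TPM in library 1 and 45.3% in library 2, where Ppard reached 52.5%. Other groups had similar shares in both libraries. Nr2c2 held 69.7% and 70.4% of the TPM it shares with Nr2c1. Nr1h2 held 51.8% and 54.8% of the oxysterol receptor TPM, although its counts stood to those of Nr1h3 as 4 to 13 in library 1 and 1186 to 930 in library 2. Among the RXR genes, Rxra (57.04% GC) had 82.9% and 59.1% of the TPM and Rxrb (58.96% GC) had 9.87% and 39.5%, so genes close in GC could also change their shares.

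**Figure D4:**
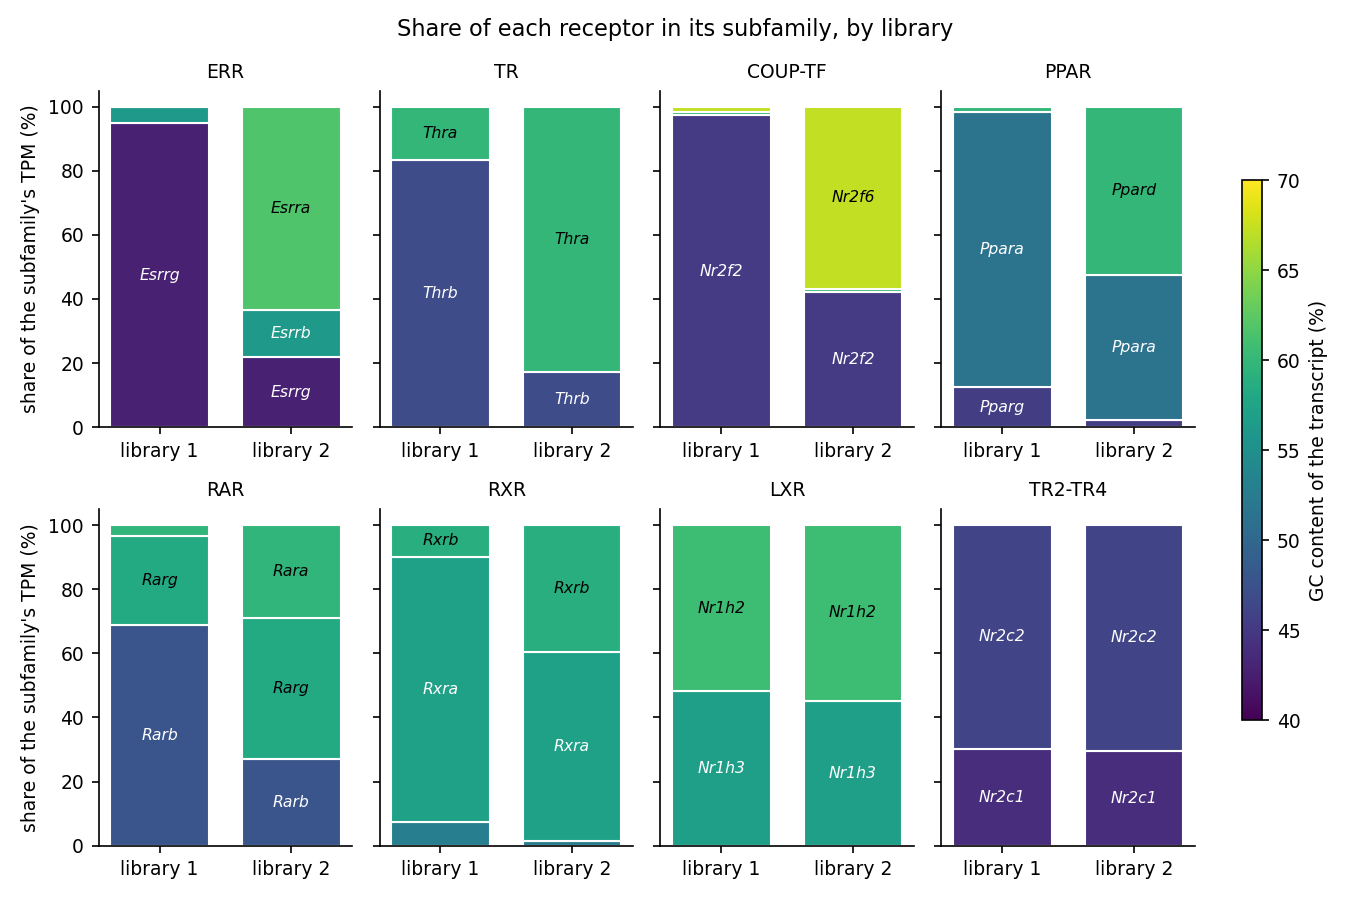
Share of each gene (percent) in the summed TPM of its subfamily in library 1 and library 2, for 8 subfamilies, with genes stacked from low to high GC content and coloured by it. The share of the gene with the lowest GC falls from library 1 to library 2 in the estrogen-related, thyroid hormone, COUP and retinoic acid receptors, and the TPM shares of the oxysterol receptors and the Nr2c pair look alike in both.

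Transcript shares were compared for the 16 members with 1 TPM or more in both libraries and at least 2 annotated transcripts. The leading transcript was the same in both libraries in 11 and differed in 5. Among the most abundant members, Vdr-201 held 100% and 96.4% of Vdr, Nr2f2-201 held 80.5% and 57.0% of Nr2f2, Esrrg-201 held 93.9% and 65.4% of Esrrg, and Nr3c1-204 held 98.4% and 80.3% of Nr3c1. Esrra-201 held 93.5% of Esrra in library 2, where the gene had counts enough for a share. In Vdr, Nr2f2, Esrrg and Nr3c1 the leading form thus had a smaller share in library 2. Esrrg-203, a coding form, went from 0.62% to 18.9%, and Nr2f2-202, a shorter coding form, from 19.5% to 43.0%.

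The 5 members with different leading transcripts were Nr1h4, Thra, Esrrb, Rarg and Nr6a1. For Nr1h4 the shift was between coding forms of almost the same length, Nr1h4-202 at 48.1% in library 1 and 33.8% in library 2, and Nr1h4-201 at 42.4% and 64.5%. Esrrb-204 held 96.7% and 28.9%, and Esrrb-203 held 0% and 69.9%. In Thra, a processed transcript of 359 bases, Thra-204, led in library 1 with 47.4% on 4 of 49 counts, and the coding Thra-201 led in library 2 with 55.5%. All 34 counts of Rarg in library 1 were given to Rarg-205, a coding model of 934 bases, which had none in library 2, where Rarg-202 led with 48.7%. Nr6a1-210 had 88.5% and 27.4%, and Nr6a1-201 had 0% and 32.0%. The share-weighted mean GC of the transcripts could be computed for 15 of the 16 members. It was higher in library 2 in 10 of them, higher in library 1 in 1 and within 0.05 percentage points in 4, with differences of -0.48 (Rarg) to 2.26 (Thra) percentage points.

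No member shared a stretch of 95% identity over 50% of its length with another gene, at the identity and length searched. In 6 members, exons overlapped those of a gene on the opposite strand over 5% or more of their length, and the sources used here do not say how strand entered the counting. The overlap covered 74.9% of Nr1i3 (with Tomm40l), 54.4% of Nr2f6 (Ocel1), 34.1% of Rarb (Top2b), 30.7% of Nr2c2 (Mrps25), 7.46% of Nr2f2 (B130024G19Rik) and 5.70% of Thra. The values of these members are uncertain to that extent.

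Cofactors that receptors recruit were more even than the receptors. All 9 coactivators had 1 TPM or more in at least 1 library and 7 of them in both, with 2 calls toward library 2, 1 call toward library 1 and a median log2 ratio of -0.33 (all genes 0.12). Ppargc1a (PGC-1 alpha), partner of PPAR and estrogen-related receptors, had 25.9 and 30.1 TPM and was called higher in library 1 (log2 ratio -1.33 ± 0.03). Ncoa3 had 8.33 and 16.5 TPM and was not called. The methyltransferase gene Carm1 had 0.54 and 15.4 TPM and the largest ratio among those called (3.45 ± 0.21). Of 7 corepressors, 3 were called toward library 1, and the median was -0.65. Ncor1 had 47 and 69.5 TPM, and Tbl1x had 17.4 and 21.2 TPM. With the GC trend removed, 1 of the 9 coactivators and none of the 7 corepressors was called.

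Of 6 chaperones of steroid receptors, 2 were called higher in each library, and none with the trend removed. Hsp90aa1 had 448 and 226 TPM and Hsp90ab1 had 353 and 605 TPM, far above any receptor. Fkbp4, a co-chaperone, had 12.9 and 163 TPM (log2 ratio 2.21 ± 0.05).

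Genes that supply or clear the ligands were present for most hormone receptors. For vitamin D, 4 of 5 genes had 1 TPM or more in both libraries, 1 was called toward library 2 and 1 toward library 1. The exception was the vitamin D activation gene Cyp27b1, at 0.15 and 0.84 TPM on 10 and 31 counts. It was the gene called toward library 2 (log2 ratio 1.13 ± 0.51), and with the GC trend removed it was not called (-0.47). The uptake receptors Lrp2 and Cubn had 114 and 235 TPM and 52.0 and 69.6 TPM, and the vitamin D hydroxylase gene Cyp2r1 had 2.43 and 1.59 TPM (log2 ratio -1.87 ± 0.30). Of 6 thyroid hormone genes, 4 had 1 TPM or more in both. Dio1, which converts the prohormone, had 36.7 and 89.8 TPM, and Dio2 had 0.33 and 0.24 TPM (log2 ratio -1.81 ± 0.36). Of 13 retinoid genes, 9 were tested, 2 were called higher in library 2 and none in library 1. The retinal reductase gene Dhrs3 had 17.5 and 110 TPM, the retinol dehydrogenase gene Rdh10 had 17.2 and 21.2 TPM, and the retinol transporter Stra6 had 0.07 and 8.68 TPM (log2 ratio 4.44 ± 0.63). With the trend removed, 1 retinoid gene was called toward library 2 and 2 toward library 1, among them Dhrs3 (-1.31), while Stra6 was at 0.19 and not called. For glucocorticoids, Hsd11b1, which activates them, had 33.8 and 74.1 TPM and was not called. Hsd11b2, which inactivates them, had 9.6 and 112 TPM and was called toward library 2 (log2 ratio 2.18 ± 0.07). With the trend removed its call turned toward library 1 (-1.70).

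Target genes of the receptors were read the same way, as levels and not as receptor activity. Of 14 PPAR targets, 13 had 1 TPM or more in both libraries, 7 were called higher in library 2 and none in library 1, at a median log2 ratio of 0.70. Among all genes tested, 35.5% were called higher in library 2. The fatty acid hydroxylase genes led, Cyp4a14 with 273 and 460 TPM and Cyp4a10 with 265 and 434 TPM, while the peroxisomal thiolase gene Acaa1b had 1.19 and 217 TPM (log2 ratio 6.12 ± 0.19). With the trend removed, 3 PPAR targets were called higher in library 2 and none in library 1. Acot1, called before, had no GC value and was not tested there. Of 7 LXR targets, 2 were called toward library 2 and 1 toward library 1. Smpdl3a had 213 and 248 TPM, the desaturase gene Scd1 had 125 and 164 TPM, and the lipogenic factor gene Srebf1 had 0.07 and 19.3 TPM (6.48 ± 0.50). Srebf1 (2.31) was the only LXR target called with the trend removed. The 5 FXR targets included the bile acid exporter subunits Slc51b, at 32.0 and 64.4 TPM, and Slc51a, at 0.71 and 20.4 TPM, with 2 called higher in library 2. Those were Slc51a and Nr0b2, which is itself a member and rests on 1 and 44 counts. With the trend removed Nr0b2 (0.56) was not called, and Slc51a and Slc51b had no GC value and were not tested there.

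Of 5 VDR targets, S100g and Calb1, the calcium binding proteins calbindin-D9k and calbindin-D28k, led with 623 and 1605 TPM and 193 and 124 TPM. S100g was not called (log2 ratio 0.01 ± 0.03), Calb1 was called higher in library 1 (-2.00 ± 0.02), and the calcium channel gene Trpv6 higher in library 2 (2.48 ± 0.72). None of the 5 was called with the trend removed. Of 6 targets of estrogen-related receptors, 2 were called toward library 2 and 1 toward library 1. Atp5b, an ATP synthase subunit gene, had 426 and 2460 TPM, the acyl-CoA dehydrogenase gene Acadm had 316 and 759 TPM, and the creatine kinase gene Ckb had 0.28 and 110 TPM (7.21 ± 0.43). Only Ckb (2.30) among these targets was called with the trend removed. Of 9 glucocorticoid receptor targets, 4 were called higher in library 2 and none in library 1, and with the trend removed 2 were called toward each library. The metallothionein gene Mt1 had 1.68 and 299 TPM (6.08 ± 0.34), and Sgk1, which acts on sodium channels, had 39.2 and 90.6 TPM and was not called. Of 5 thyroid hormone receptor targets, 2 were called toward library 2 and 1 toward library 1, among them Me1 (93.2 and 138 TPM) and Hr (0.01 and 1.12 TPM, 4.19 ± 0.93). Hr, at 67.7% GC, moved to -3.68 with the trend removed, and none of these targets with a GC value was called there. The 4 PXR and CAR targets were scarce like their receptors, with Cyp3a11 at 1.01 and 0.37 TPM, Cyp3a13 at 0.42 and 0.2 TPM and Cyp2c29 at 0.37 and 0.08 TPM. These 3 were called higher in library 1, and the fourth, Cyp2b10, was not tested. Cyp3a11 (-1.19) and Cyp2c29 (-2.10) kept that call with the trend removed, and Cyp3a13 (-0.99) did not.

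Markers of other tissues were looked at because several receptors mark them. The 5 adrenal cortex markers were all below 1 TPM in both libraries, with sums of 0.49 and 1.6 TPM, and Cyp11b2 was at 0. The 5 ovary markers summed to 0 and 0.09 TPM, with Fshr, Amh and Cyp19a1 at 0. The adrenal and gonadal receptors Nr5a1 and Nr0b1 were at or near 0 beside them. The 5 fat markers summed to 24.6 and 104 TPM, led by Fabp4 at 23.0 and 72.7 TPM, with Adipoq at 1.56 and 5.02 TPM and Lep at or below 0.06 TPM, beside Pparg at 0.7 and 1.24 TPM. The 5 liver markers summed to 8.54 and 51.0 TPM, and the 5 leukocyte markers to 8.8 and 45.1 TPM. Of the latter, Lyz2 had 5.31 and 23.8 TPM, Csf1r had 0.75 and 18.1 TPM, Ptprc had 2.71 and 2.61 TPM, and Cd3e and Cd79a were below 0.4 TPM. On scaled counts Csf1r was called toward library 2 and Ptprc toward library 1, and with the trend removed Lyz2 (1.09) and Csf1r (1.40) were called toward library 2. So were the fat markers Fabp4 (1.88) and Cfd (2.30) and the liver marker Ttr (3.02, at 2.49 and 31.6 TPM). No fat or liver marker was called toward library 1. What part such cells had in the receptor levels was not tested. The libraries are technical replicates of 1 tissue sample, and why the markers differed between them was not tested. For the level of a marker in bulk tissue, fewer cells of a type and less RNA per cell cannot be told apart.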

How the data were processed

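Gene and transcript tables of 2 libraries, on mm10 with annotation release M4 per the text deposited beside them, were used. Neither aligner nor quantifier is given in the sources used here. Per the file headers, the authors' tables hold expected counts and posterior mean counts, neither of them normalized. TPM values were deposited by the authors as counts over effective length. Transcript shares within a gene are percent values in the deposited tables. The members and all lists were chosen with earlier results of these data known, so no list is independent evidence.

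Spike-in rows (97) and 26248 numbered rows, all at 0, were left out. Symbols came from GENCODE M21 for 98.0% of the 43346 rows, and rows without one held 0.0741% and 0.0853% of counts. Expected counts were rounded. TMM (edgeR 4.0.16) used genes with at least 10 counts. With a single library per side no quasi-likelihood model could be fitted. Counts were compared by a conditional binomial test, two-sided and exact (Python 3.11.15, scipy 1.17.1) and adjusted after Benjamini-Hochberg, and log2 ratios used a prior count of 0.5. The trend over GC was fitted by locally weighted regression (statsmodels 0.14.6, span 20%) over genes with at least 100 counts, on transcripts within 10% of the annotated length, which gave GC for 95.3% of the genes tested. Shared stretches were searched with blastn 2.17.0 at 95% identity, over 80% of the length (mitochondrial copies) or 50% (members). Zinc fingers were searched in the translated coding region of each gene's transcripts, and the most abundant one that held the pattern was used. Coding bases are printed in place of the protein stretches first planned. Intervals (95%, exact) and the floor of 3 counts for a count of 0 cover counting error only. The test was checked on simulated counts. Other scalings, filters, thresholds and estimates were tried, and their effect is given in the closing section.

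All 41 members are named. From each other list the 2 genes of highest mean TPM and the called gene of largest ratio are named, and transcripts are named for the 6 members of highest mean TPM and for those whose leading transcript differed. Some genes under this rule are not reported here. Other genes are named as cell type markers or, after their values were seen, as the exception to a count.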

Additional observations from a re-analysis of the deposited data

How the results depend on the processing

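The number of members called higher in library 2 was 15 with the scaling used, 6 with the GC trend removed, and between 13 and 20 under the 9 other settings. The number called higher in library 1, 10 with the scaling used, was 1 with total counts, 6 with total counts without mitochondrial genes and copies, 6 with the GC trend removed, 6 with TMM on all gene rows (chosen after seeing the data), 1 at a log2 ratio of 2 or more, and between 7 and 14 under the others. The median log2 ratio of the members, 0.39, was 1.29 with total counts, 0.63 without mitochondrial genes and copies, -0.0555 with the GC trend removed, and 0.67 both without a count filter and at 50 or more counts, and within 0.1 under the others. Of the 25 called members, all kept their call and direction with DESeq2 size factors (DESeq2 1.42.0), posterior mean counts and a prior count of 2, 16 did with total counts, and 21 each with total counts without mitochondrial genes and copies and with TMM on all gene rows, with no change of sign in any of these. With the GC trend removed 8 did and 8 changed sign: Rarg (-1.05), Nr2f6 (-2.87), Rxra (-0.0463), Esrrb (-0.92), Nr3c1 (0.0569), Rora (0.25), Rara (-1.22) and Thra (-0.32). The cause was not tested.

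The 17 members at 1 TPM or more in both libraries became 19 at 0.5 TPM, 8 at 5 TPM, 23 on TPM without mitochondrial genes and copies, and 20 on posterior mean TPM. With library 1 or library 2 left out, the count ranged from 17 to 28. The rank correlation of 0.58 was 0.43 over the 17 members alone and 0.65 on posterior mean TPM. The leading transcript was shared in 11 of 16 members, and in 7 of the 8 at 5 TPM or more, a smaller set by construction. No paired analysis was possible because the 2 libraries form 1 group. Among the members tested, counting error was largest for Esrra, Nr0b2, Nr1i3 and Esr2, each with 3 or fewer counts in library 1, although that library had the larger total.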

Other observations

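The P-box classes took different shares of the family's TPM in the 2 libraries. The class of 25 members that includes Vdr, the RXR genes and the thyroid hormone, retinoic acid, PPAR and oxysterol receptors held 46.3% of the members' TPM in library 1 and 66.0% in library 2. The estrogen-related receptors, a class of 3, held 16.9% and 17.2%, although Esrrg led it in library 1 and Esrra in library 2. The COUP class of 3 held 20.2% and 12.0%. The class of Nr3c1 and Pgr held 15.4% and 3.91%, nearly all of it from Nr3c1, and the estrogen receptors Esr1 and Esr2 held 0.969% and 0.345%. Nr5a1 with Nr5a2, Nr2e1 and Nr2e3 made up the other 3 classes, each below 0.3% in both libraries.

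The counts of Nr2e3, 23 in library 1 and 15 in library 2, were given to different models in the 2 libraries. All of those in library 1 went to Nr2e3-202, a retained-intron form, and all of those in library 2 to the coding Nr2e3-201. On posterior mean TPM, Nr2e3-202 again led in library 1, with 46.1%. In library 2 a transcript other than Nr2e3-201 led, with 22.3%, so the lead of the coding form rests on the first estimate alone. For Nr4a2, on 22 and 14 counts, the isoform percent gave 67.4% to Nr4a2-206, a nonsense-mediated decay form, in library 1 and 100% to the coding Nr4a2-203 in library 2. On posterior mean TPM another transcript led Nr4a2 in both libraries, with 82.4% and 85.2%, so this split too rests on the first estimate alone.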
